A study of Mus musculus with 8 samples.

Results

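The enzymes described here take off the histone marks that Polycomb complexes put on. They are 5 deubiquitinases (Usp16, Usp21, Usp22, Bap1 and Mysm1), the Bap1 cofactor Asxl1 and the H3K27 demethylases Kdm6a and Kdm6b. They were taken as every probe that is not a control and whose gene name in the scanner files is 1 of these 8 names. That gave 9 probes of 55681 on the array, 1 for each gene except Usp16, which has 2. All 9 probes passed the filter on dim signals and stand among the 29057 probes tested. The samples are total RNA of mouse embryonic stem cells (ESC) taken 6 days into neural induction, a stage that the labels call RGC-like NPC (radial glial cell-like neural progenitor cells). A control group of 4 samples (shCtrl, treatment control) was compared with a group of 4 samples (shZrf1, treatment Zrf1 KD) in which a short hairpin RNA is directed against Zrf1. Zrf1 is named Dnajc2 in current annotation. The ESC line, the number of clones and how the hairpins were delivered are not stated in the labels.

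Polycomb repressive complex 1 (PRC1) attaches ubiquitin to histone H2A, and Polycomb repressive complex 2 (PRC2) methylates H3K27. Both marks are tied to silent developmental genes in stem cells, and both can be removed when such genes are switched on. Deubiquitinases of several unrelated protein families remove the ubiquitin, and Jumonji-domain enzymes remove the methyl groups. Dnajc2 is a ribosome-associated chaperone that also binds ubiquitylated H2A, where it has been described to displace PRC1 and to assist deubiquitination by Usp21.

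Each array measured RNA amplified with oligo-dT from 100 ng of total RNA in 1 colour, and signals are given as log2 relative to the 75th percentile of the array, so that 0 is that percentile. Levels of different probes are not compared with each other. Changes are knockdown minus control from limma, fitted over all tested probes, and "called" means an adjusted p under 0.05 over those probes. Dnajc2 itself lay between 1.75 and 2.02 on the control arrays and between -2.53 and -2.08 on the knockdown arrays, a change of -4.19 (SE 0.12, limma adjusted p = 1.38e-07). Between 53.4% and 60.3% of the spots on an array were well above background and no spot was saturated. The background of the comparison is high: 57.1% of tested probes were called, 29.0% higher and 28.1% lower. The file names of knockdown 1 and 2 share a number, as do those of knockdown 3 and 4, and 1 file of each pair is marked TR. The labels count them as 4 replicates, and they are treated so here. Whether they share cells or RNA is not given in the sources used here. The p-values measure the spread between these samples, which may be technical in part. The SD of the log2 difference over tested probes was 0.38 and 0.40 within those pairs, against 0.32 to 0.42 between the other knockdown arrays and 0.39 to 0.52 between control arrays. With each pair averaged to 1 sample, 49.0% of tested probes were called.

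The probes are shown first because oligo-dT labelling starts at the poly(A) tail, so that the place of a probe near the transcript end matters for its signal. The last 30 bases of 4 member probes are given 5′ to 3′, with the polyadenylation signal letters AATAAA in capitals where they occur. They are both probes of Usp16, which differ in this feature, and the probes of the members with the clearest falls.
Usp16 A_55_P1961059: atacacctatggcttttatactggctatta
Usp16 A_55_P2126109: tgcttgacacatcAATAAActgatattccc
Usp21 A_55_P2067181: gcaatctcacttttttgtgAATAAAtttat
Asxl1 A_55_P1994052: tattggaaaAATAAAcctgtacaacctgca
Of the 9 member probes 3 held AATAAA, as did 10.1% of the 55681 probes on the array (given strand only). The signal was followed by 11 bases in the Usp16 probe, 5 in the Usp21 probe and 15 in the Asxl1 probe. The letters alone do not show that a transcript ends there.

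The members' changes were of moderate size for these arrays. Of 9 member probes 4 were called (44.4%, against 57.1% of all tested probes). With slide as a block 6 of the 9 were called, 2 higher and 4 lower, against 59.5% of all tested probes. With scaling by the median 5 of the 9 were called, all lower, against 51.1%. On which side of the background the members stand thus depends on such choices. Usp22 was the member called higher, and Usp21, Asxl1 and Kdm6a were called lower. The median size of change over the 9 probes was 0.30 on the log2 scale, against 0.43 over all tested probes. No member reached a 2-fold change, which 18.6% of tested probes did. The median signed change was -0.20 for the members and 0.05 for all tested probes. The counts describe 9 probes, and no test was made over the group.

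**Figure D1:**
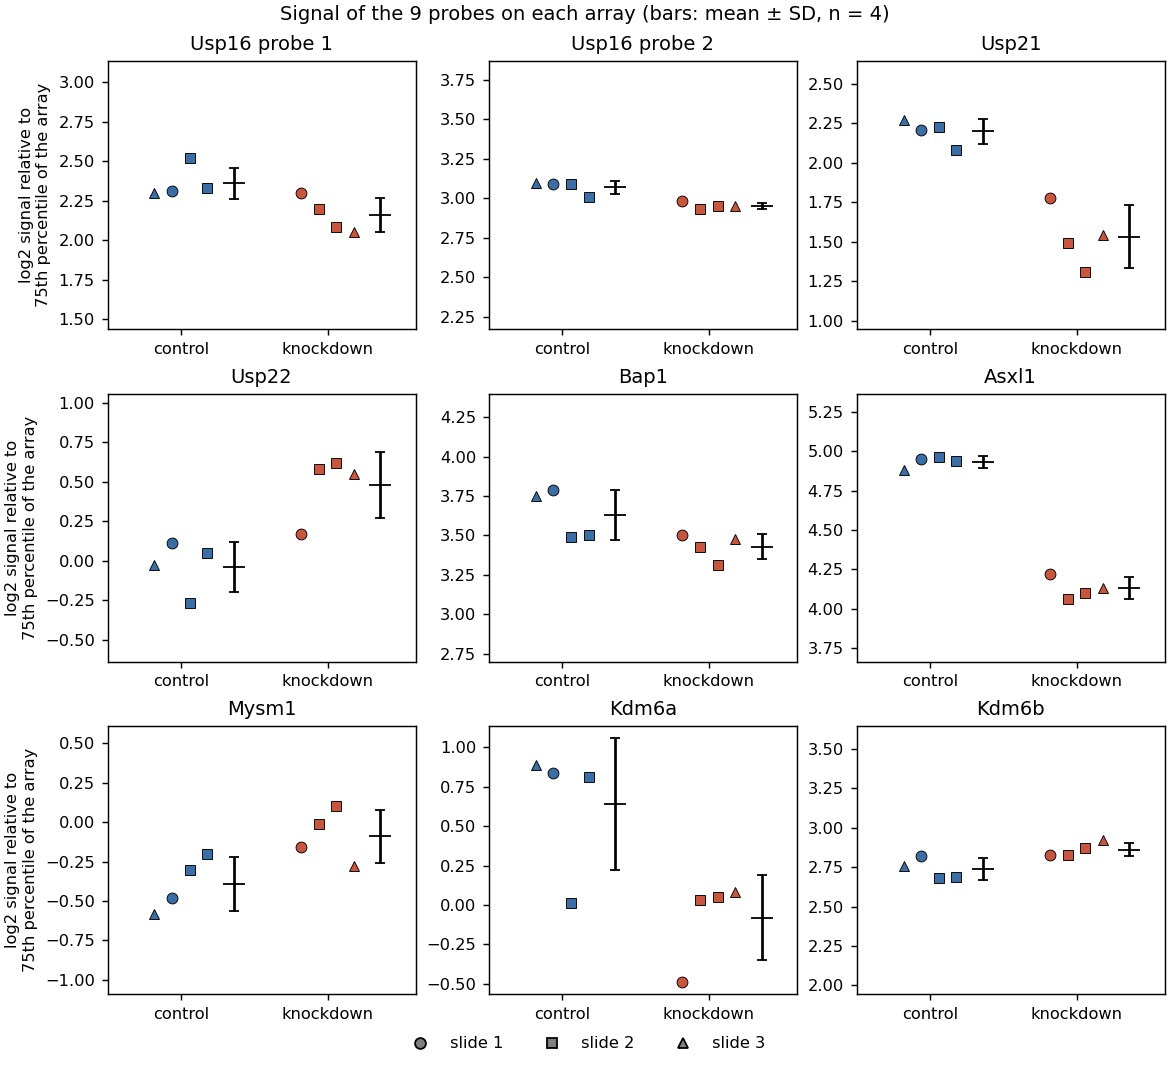
Log2 signal relative to the 75th percentile of the array (vertical axes, all spanning the same range) of the 9 member probes on the 4 control and 4 knockdown arrays; symbols show the slide, and bars the mean ± SD (n = 4). Asxl1 and Usp21 are lower on every knockdown array, Usp22 is higher on every knockdown array, and Kdm6a has 1 low array in each group.

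Among the deubiquitinases of the USP family, cysteine proteases that form the largest class of such enzymes, the members went both ways. Usp21 removes ubiquitin from H2A (probe on chromosome 1 from 173212090 to 173212149, mm9). The log2 signal of Usp21 was 2.27, 2.21, 2.23 and 2.08 on control arrays 1 to 4 and 1.78, 1.49, 1.31 and 1.54 on knockdown arrays 1 to 4. Every knockdown array lay below every control array. The change was -0.67 (SE 0.11, 1.59-fold lower, limma adjusted p = 0.000804). Knockdown 1 was the least affected, and within the 3 slides the change was -0.43, -0.76 and -0.73. Slide 1 holds control 2 and knockdown 1, and slide 3 holds control 1 and knockdown 4. Here and below, the changes within slides 1 and 3 are thus differences between single arrays. Slide 2 holds control 3 and 4 and knockdown 2 and 3. Usp21 was called lower under all 22 alternative settings, with changes from -0.84 to -0.56.

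Usp22 is the deubiquitinase of the SAGA coactivator complex and acts on H2B and H2A (probe on chromosome 11 from 60966358 to 60966417, mm9). Its log2 signal was -0.03, 0.11, -0.27 and 0.05 on control arrays 1 to 4 and 0.17, 0.58, 0.62 and 0.55 on knockdown arrays 1 to 4. The groups did not overlap, but knockdown 1 lay close to the highest control array and apart from the other knockdown arrays. The change was 0.52 (SE 0.13, 1.43-fold higher, limma adjusted p = 0.00769). Within the 3 slides it was 0.07, 0.71 and 0.58, so the slide that holds knockdown 1 showed little of it. Scaling by the median ended the call (0.35, limma adjusted p = 0.0810), as did leaving out knockdown 3 and 4 together (0.41, limma adjusted p = 0.0864).

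Usp16 deubiquitinates H2A and is known for its part in mitosis and in the exit of stem cells from self-renewal. Its 2 probes lie 226 bases apart on chromosome 16, from 87483471 to 87483530 and from 87483697 to 87483756 (mm9). The probe without the AATAAA letters read 2.30, 2.31, 2.52 and 2.33 on control arrays 1 to 4 and 2.30, 2.20, 2.08 and 2.05 on knockdown arrays 1 to 4. The other probe read 3.1, 3.09, 3.09 and 3.01 on control arrays and 2.98, 2.93, 2.95 and 2.95 on knockdown arrays. Both probes were slightly lower on every knockdown array, although for the first the gap between the groups was smaller than the rounding. Neither was called: the changes were -0.21 (95% interval -0.40 to -0.01, limma adjusted p = 0.0656) and -0.12 (95% interval -0.25 to 0.01, limma adjusted p = 0.103). The first was called lower without knockdown 1 (-0.25, limma adjusted p = 0.0388), without knockdown 1 and 2 (-0.30, limma adjusted p = 0.0464) with scaling by the median (-0.38, limma adjusted p = 0.0428) and without control 3 and knockdown 1 (-0.20, limma adjusted p = 0.0453). The second turned to between 0.01 and 0.04 under quantile normalization, normexp with quantile normalization and the authors' values, and was not called there.

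Whether the 2 Usp16 probes changed unequally was tested by fitting, for all 5227 genes with at least 2 tested probes, the difference between the second brightest and the brightest probe on each array. Such differences were called for 19.8% of those genes. For Usp16 the difference of changes was -0.09 (SE 0.09, 95% interval -0.29 to 0.11, limma adjusted p = 0.631). No difference between the Usp16 probes was called, and its interval is wider than either change is large.

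Mysm1 belongs to another protease class, the JAMM metalloproteases, and removes ubiquitin from H2A in blood and immune cells among others (probe on chromosome 4 from 94608763 to 94608822, mm9). On the log2 scale Mysm1 read -0.58, -0.48, -0.30 and -0.20 on control arrays 1 to 4 and -0.16, -0.01, 0.10 and -0.28 on knockdown arrays 1 to 4. Knockdown 4 lay inside the control range and the other knockdown arrays above it. The change was 0.30 (SE 0.12, 95% interval 0.04 to 0.57) and was not called (limma adjusted p = 0.0538). The slides matter here: within them the change was 0.32, 0.29 and 0.30, and with slide as a block Mysm1 was called higher (0.30, limma adjusted p = 0.00768). It was also called without control 4 (0.37, limma adjusted p = 0.0351), without knockdown 4 (0.37, limma adjusted p = 0.0361) and with the percentile taken over probes detected on all arrays (0.41, limma adjusted p = 0.0114). With only probes above background on all arrays, its limma adjusted p was 0.0472. Under the other alternatives it was not called, down to 0.13 with scaling by the median.

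Bap1 and Asxl1 form the core of the Polycomb repressive deubiquitinase (PR-DUB), in which Bap1, a protease of the UCH family, is active only with an Asxl protein. Asxl1 showed the largest change of the 9 probes and the smallest spread relative to it (probe on chromosome 2 from 153229684 to 153229743, mm9). Its log2 signal was 4.88, 4.95, 4.96 and 4.94 on control arrays 1 to 4 and 4.22, 4.06, 4.10 and 4.13 on knockdown arrays 1 to 4. All control arrays lay well above all knockdown arrays. The change was -0.81 (SE 0.06, 95% interval -0.95 to -0.66, 1.75-fold lower, limma adjusted p = 1.22e-05). It was -0.74, -0.87 and -0.75 within the 3 slides, and Asxl1 was called lower under all 22 alternatives, with changes from -0.98 to -0.70. Even so, 25.8% of all tested probes had a larger change in size.

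Bap1, the catalytic subunit, changed less (probe on chromosome 14 from 32072862 to 32072921, mm9). On the log2 scale Bap1 read 3.75, 3.79, 3.49 and 3.50 on control arrays 1 to 4 and 3.50, 3.43, 3.31 and 3.48 on knockdown arrays 1 to 4. Control 3 and 4, both on slide 2, read lower than the other control arrays, and the groups overlapped. The change was -0.20 (SE 0.09, 95% interval -0.42 to 0.01) and was not called (limma adjusted p = 0.101). It was called lower with slide as a block (-0.20, limma adjusted p = 0.0450), where the within-slide changes were -0.29, -0.12 and -0.27, and with scaling by the median (-0.37, limma adjusted p = 0.0191). The intervals of Asxl1 and Bap1 do not overlap, and the difference between the genes was not tested.

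Asxl1 and Usp21 were the members called lower under every alternative, and both have an entry in the RefSeq promoter table (build GRCm38.p6), as 6 of the 8 members do. The 250 bases before the annotated start of each are given 5′ to 3′ on the strand of the gene, with matches to the searched motifs in capitals. The window of Asxl1 is chr2:153345580-153345829 on the plus strand and that of Usp21 is chr1:171287962-171288211 on the minus strand.
Asxl1: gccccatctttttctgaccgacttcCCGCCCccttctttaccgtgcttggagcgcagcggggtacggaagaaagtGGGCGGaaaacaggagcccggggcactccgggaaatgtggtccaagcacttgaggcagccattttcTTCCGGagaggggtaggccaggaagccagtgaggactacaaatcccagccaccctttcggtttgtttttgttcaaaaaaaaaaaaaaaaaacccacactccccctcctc
Usp21: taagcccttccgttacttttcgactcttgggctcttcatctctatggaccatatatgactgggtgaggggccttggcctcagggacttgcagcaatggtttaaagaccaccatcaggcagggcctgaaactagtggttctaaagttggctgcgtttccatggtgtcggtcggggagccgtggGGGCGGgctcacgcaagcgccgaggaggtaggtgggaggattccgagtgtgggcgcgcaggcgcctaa
Both strands were searched for GGGCGG (a GC box), CCGGAA (the core of ETS factor sites), CACGTG (an E-box), TATAAA and CCAAT. None of these motifs contains another. Asxl1 held 2 GGGCGG and 1 CCGGAA, and Usp21 held 1 GGGCGG and no other of the 5 motifs. GGGCGG stood in 5 of the 6 member windows, against 32.7% of the 32851 windows of this length in the table. CCGGAA stood in 3 of 6 (Asxl1, Mysm1 and Usp16), against 12% of all windows, and CACGTG in 3 of 6 (Bap1, Kdm6a and Usp16), against 6.02%. TATAAA and CCAAT stood in none of the 6, against 12.4% and 33.8%. These matches describe the letters only.

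The H3K27 demethylases differed in how firmly they moved. Kdm6a, also called Utx, is encoded on the X chromosome and works within the MLL3 and MLL4 methyltransferase complexes (probe on chromosome X from 17852163 to 17852222, mm9). Its log2 signal was 0.89, 0.84, 0.01 and 0.81 on control arrays 1 to 4 and -0.49, 0.03, 0.05 and 0.08 on knockdown arrays 1 to 4. The low array of the control group, control 3, fell inside the knockdown range, and knockdown 1 lay below all other arrays. The change was -0.72 (SE 0.22, 95% interval -1.23 to -0.21, 1.65-fold lower, limma adjusted p = 0.0229). This was the widest interval of the 9 probes. Within the 3 slides it was -1.33, -0.37 and -0.81.

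The call for Kdm6a lay close to the threshold. It was lost, with limma adjusted p values of 0.0594 to 0.0614, when control 1 (-0.64), control 2 (-0.65), control 4 (-0.67) or knockdown 1 (-0.59) was left out. It was lost too with the knockdown pairs averaged (-0.72, limma adjusted p = 0.0754), without knockdown 1 and 2 (-0.57, limma adjusted p = 0.137), without knockdown 3 and 4 (-0.87, limma adjusted p = 0.0579), with no filter on dim probes (limma adjusted p = 0.0565) and with the percentile over probes detected on all arrays (-0.61, limma adjusted p = 0.0644). It was kept without knockdown 2, 3 or 4 (-0.76, -0.77 and -0.78, limma adjusted p = 0.0400, 0.0385 and 0.0348). Without control 3 the change was -0.93 (limma adjusted p = 0.00149). Leaving out control 3 and knockdown 1 together, an alternative chosen after these values were seen, gave -0.80 (limma adjusted p = 0.000179). The direction was lower under all 22 alternatives. Over all tested probes the SD of the log2 difference of control 3 was 0.52 from control 1 and 0.51 from control 2, but 0.41 from control 4, which lies on the same slide. The other pairs of control arrays gave 0.39 to 0.42. Beyond the fits that leave control 3 out, the part of that array in the Kdm6a result was not tested.

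Kdm6b, also called Jmjd3, is a demethylase often induced by differentiation and inflammatory signals (probe on chromosome 11 from 69212177 to 69212236, mm9). Its log2 signal was 2.76, 2.82, 2.68 and 2.69 on control arrays 1 to 4 and 2.83, 2.83, 2.87 and 2.92 on knockdown arrays 1 to 4. Each knockdown array lay above each control array by a small margin. The change was 0.13 (SE 0.06, 95% interval -0.02 to 0.27) and was not called (limma adjusted p = 0.121). Its direction depends on the scaling. It was called higher under quantile normalization (0.24, limma adjusted p = 0.0248), normexp with quantile normalization (0.23, limma adjusted p = 0.0185), the authors' values (0.23, limma adjusted p = 0.0175) and the percentile over probes detected on all arrays (0.24, limma adjusted p = 0.0225), and turned to -0.05 with scaling by the median (limma adjusted p = 0.782). Uty, the Y-linked relative of Kdm6a, was chosen after its values were seen. It changed by -0.12 (SE 0.22) and was not called (limma adjusted p = 0.674).

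**Figure D2:**
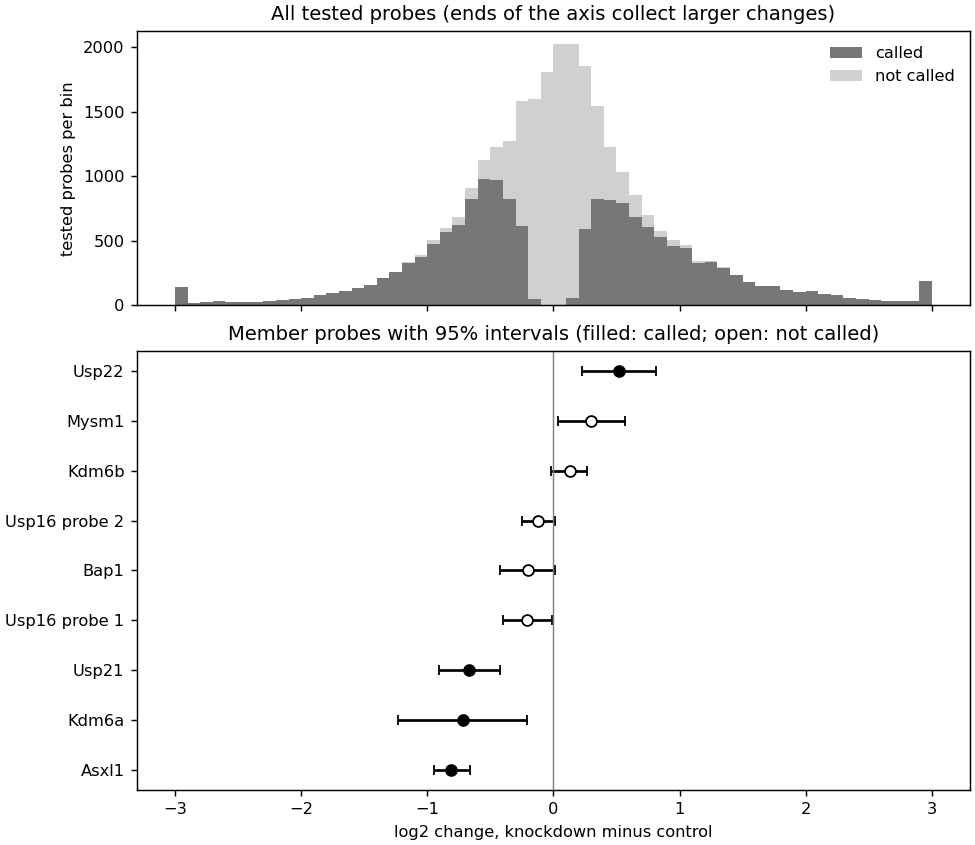
Log2 change, knockdown minus control (horizontal axis): above, the number of tested probes per bin of 0.1, called or not; below, the 9 member probes with 95% intervals (filled points called, open points not). The members lie between -0.81 and 0.52, inside the central part of the distribution of all 29057 tested probes.

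For 6 of the 9 member probes the control and knockdown arrays did not overlap. They were both Usp16 probes, Usp21, Usp22, Asxl1 and Kdm6b. The same held for 54.2% of all tested probes. Overlap and calls did not coincide: Kdm6a was called with overlapping groups, and Usp16 and Kdm6b were not called with separate ones. The scaling sets small changes here. Scaling by the median moved the median change of all tested probes by -0.17, and the percentile over detected probes moved it by 0.11. Over all probes the share of calls that were higher was 50.8%, with 37.7% under scaling by the median and 59.4% under the percentile over detected probes. Of the members, 1 was called higher and 3 lower, against none higher and 5 lower with scaling by the median, and 3 higher and 2 lower with the percentile over detected probes.

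**Figure D3:**
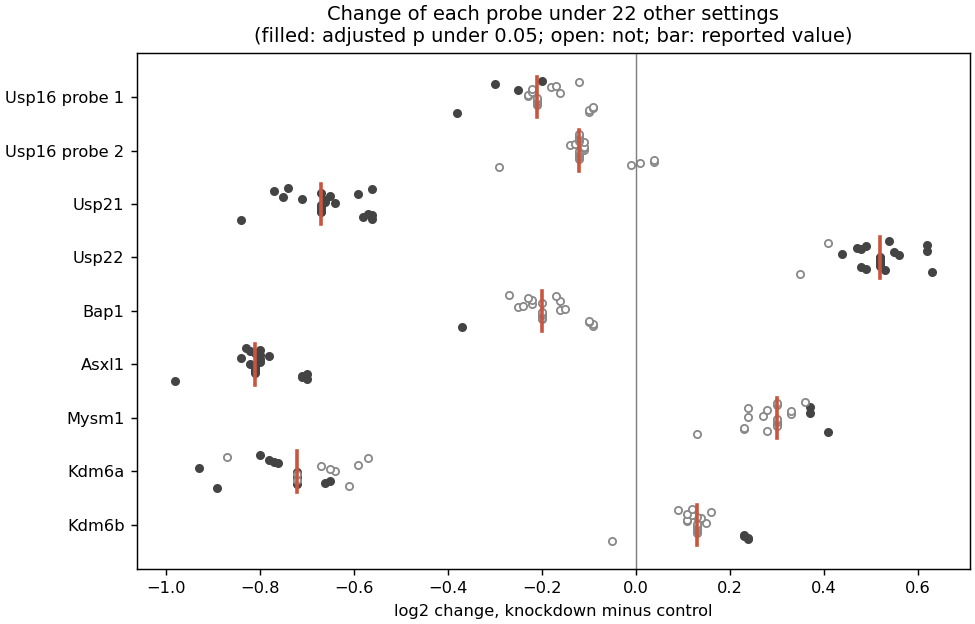
Log2 change, knockdown minus control (horizontal axis), of each member probe as reported (bar) and under 22 alternative settings (points; filled where the adjusted p was under 0.05). Asxl1 and Usp21 are filled throughout, Kdm6a is filled under 13 of the 22, and Kdm6b and the second Usp16 probe cross 0.

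Genes related to these enzymes were taken from 7 lists, with the brightest tested probe standing for a gene. The lists hold partners, other deubiquitinases, other Jumonji proteins and the opposing writers, and are pooled in the counts that follow. Of 88 tested genes 58 were called (65.9%, against 65.6% of all 14639 tested genes with a current symbol), 14 higher and 44 lower. Over all such genes 30.9% were higher and 34.7% lower. The median change was -0.28 for the listed genes and -0.02 for all genes. Calls among the listed genes ran from 7 higher and 46 lower with scaling by the median to 18 higher and 39 lower with the percentile over detected probes. Lower calls outnumbered higher ones under each of the 5 other scalings and normalizations. No test was made over the lists.

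PR-DUB partners and relatives fell in 7 of 9 cases and none was called higher, with a median of -0.35. The share called was 77.8%, against 65.6% of all tested genes with a current symbol. Asxl3, a relative of Asxl1, fell by 2.26 (limma adjusted p = 2.90e-06), and the methyl-CpG-binding domain gene Mbd5 fell by 1.28 (limma adjusted p = 2.03e-05). Hcfc1, a chromatin scaffold that binds Bap1, fell by 0.88 (limma adjusted p = 1.91e-05), and the forkhead factor Foxk1, which recruits Bap1 to DNA, fell by 0.35 (limma adjusted p = 0.00630). Under 4 of the other scalings and normalizations 2 genes of this list were called higher. Scaling by the median, like the reported setting, gave none.

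In the list for SAGA, which holds other deubiquitinases besides its subunits, 8 of 14 genes fell and 2 rose, with a median of -0.40. That is 71.4% called, against 65.6% of all tested genes with a current symbol. Usp22 itself was called higher. The acetyltransferase Kat2a fell by 0.82 (limma adjusted p = 7.86e-06), the deubiquitinase module subunit Eny2 by 0.65 (limma adjusted p = 9.17e-05) and Atxn7l2 by 0.50 (limma adjusted p = 0.00154). Atxn7l1 rose by 0.53 (limma adjusted p = 0.000227). Atxn7l3, which holds Usp22 active within the module and was chosen after its values were seen, fell by 0.78 (limma adjusted p = 0.00173). Supt7l was too dim to be tested.

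Other enzymes that act on H2A or H2B ubiquitin, with their regulators, were called higher in 4 of 13 cases and lower in 4, with a median of 0.01. Their share called was 61.5%, against 65.6% of all tested genes with a current symbol. Brcc3, a JAMM deubiquitinase, fell by 0.71 (limma adjusted p = 1.39e-05), Usp7 by 0.45 (limma adjusted p = 0.000477) and Usp29 by 0.41 (limma adjusted p = 0.00460). Usp3 rose by 0.51 with 1 of its 2 probes called (limma adjusted p = 0.000332). With scaling by the median 1 gene of this list was called higher and 4 lower.

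The genes of the opposing writers went both ways. In the PRC1 ligase list 5 of 11 fell and 3 rose (median -0.51). Both this list and the PRC2 list had 72.7% of genes called, against 65.6% of all tested genes with a current symbol. Bmi1 changed by -2.16, its relative Pcgf2 by -0.87 (limma adjusted p = 0.000226), Yaf2 by -0.54 with 1 of 2 probes called, and Pcgf5 by 1.43. In the PRC2 list 5 of 11 fell and 3 rose (median -0.07), while with the tested probes of a gene averaged 4 fell and 5 rose. The methyltransferase Ezh2 changed by -1.13 (limma adjusted p = 1.43e-06) and its paralogue Ezh1 by 1.01 (limma adjusted p = 5.59e-06). Phf19 changed by -1.99 and Phf1 by 0.86, the latter with 1 of 2 probes called. With the authors' values 4 genes of the PRC2 list were higher and 3 lower.

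Partners of Kdm6a in the MLL3 and MLL4 complexes were called lower in 4 of 9 cases (44.4%) and higher in none (median -0.39). Over all tested genes with a current symbol 34.7% were called lower and 65.6% were called in either direction. The 4 were the methyltransferase Kmt2c (-0.60, limma adjusted p = 4.20e-05), the coactivator Ncoa6 (-0.74, limma adjusted p = 0.00146) and the core subunits Ash2l (-0.45, limma adjusted p = 0.00114) and Dpy30 (-0.39, limma adjusted p = 0.00456). The same 4 lower and 0 higher counts came out of each other scaling and normalization. Among other Jumonji proteins 11 of 21 fell and 2 rose (61.9% called, median -0.27), while with the tested probes of a gene averaged 10 fell and 2 rose. Kdm5b, chosen after its values were seen, counts as lower by its brightest probe. Of its 4 tested probes 2 were called higher and 2 lower. Phf2 fell by 1.39, the H3K9 demethylases Kdm4a and Kdm4b by 1.17 and 0.76, and Jmjd7 rose by 0.96, with limma adjusted p values from 2.12e-05 for Phf2 to 5.68e-05 for Kdm4b. Kdm4d and Kdm5d were too dim to be tested.

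**Figure D4:**
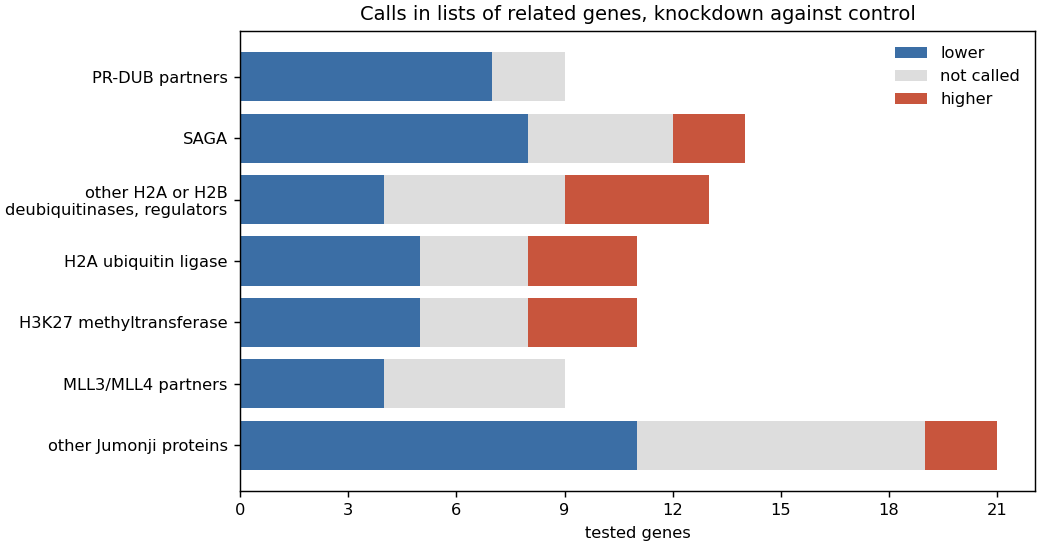
Number of tested genes (horizontal axis) called lower, not called and called higher in the knockdown in each of 7 lists of related genes. The lists of PR-DUB partners and of MLL3 and MLL4 partners hold no gene called higher, and the list of other deubiquitinases and regulators holds 4 lower and 4 higher.

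Some markers of cell identity moved with the groups as well. Among all tested genes with a current symbol 65.6% were called, 30.9% higher and 34.7% lower. Of 12 neural progenitor markers, all well above background on the control arrays, 11 fell and none rose. Their mean log2 signal was 2.82 to 2.89 on control arrays and 0.61 to 0.85 on knockdown arrays. Fabp7, a radial glial marker, cleared the background threshold on none of the knockdown arrays. It was tested only through the control arrays, where it is high, and its dim values (mean -5.15) enter the knockdown mean of the markers. The brighter probe of Pax6 was not called (-0.24, limma adjusted p = 0.101). Of the 2 tested probes of Pax6, the other was called higher. With scaling by the median all 12 genes were lower by their brightest probe. All 9 tested endoderm markers were called higher, from a mean of -2.62 to -2.51 on control arrays to -0.09 to 0.03 on knockdown arrays. With scaling by the median 7 of the 9 were called. Cubn, Gata4 and Ttr cleared the background threshold on 3 control arrays and Afp on none, so these 4 were tested only through the knockdown arrays, where they are high, and the control mean includes such dim values. The other 5, Dab2, Foxa2, Gata6, Sox17 and Amn, cleared it on all 8 arrays and were called higher by their brightest probe. Foxa2 and Sox17 each have 2 tested probes, of which 1 was called. Apoa1 was not tested. Of 3 tested mesoderm markers Actc1 and Myl7 were called higher. The brighter of the 2 Kdr probes was not called and the other was called lower, and T, Mixl1, Mesp1 and Hand1 were not tested. Fibroblast or feeder markers were called higher in 3 of 6 cases, with Lum not tested. Myl7, above background on 2 control arrays, and the fibroblast marker Pdgfra, on none, were also tested only through the knockdown arrays. Dcx, a neuronal marker counted as lower below, was above background on 1 knockdown array. It was tested only through the control arrays, where it is higher. Pluripotency markers were called higher in 2 of 7 cases and lower in 3, and neuronal markers higher in 2 of 6 and lower in 3. Shares called were 91.7% for neural progenitor, 100% for endoderm and 83.3% for neuronal markers. They were 71.4% for pluripotency, 66.7% for mesoderm and 50% for fibroblast or feeder markers, near or below the 65.6% of all genes. The part of these shifts in the changes of the members was not tested. In bulk RNA, fewer cells of a type and less RNA per cell cannot be told apart.

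The genes whose signals followed a member most closely were found by the root mean square difference over the 8 arrays, after each probe was centred on its control mean. For Usp22 they were Slc35d2 (0.0442), Nkx1-2 (0.0697) and Clip4 (0.0785), with changes of 0.51, 0.54 and 0.59. For Asxl1 they were Zfp260 (0.0302), 2610318N02Rik (0.0303) and Arhgap39 (0.0340), with changes of -0.78, -0.80 and -0.78. The differences were smaller around Asxl1, whose arrays spread less within each group.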

How the data were processed

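Per the file headers, the deposited intensity of each spot was made with Agilent Feature Extraction 10.7.3.1 on 1-colour arrays (design positions on mm9), with background correction and detrending within each array and a small positive substitute for dim spots. Nothing had been scaled between arrays. The authors' deposited table of log2 values, whose 8 columns share 1 distribution, served as an alternative, and how the authors made it is not given in the sources used here.

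Intensities of unflagged spots were averaged per probe and put on the log2 scale relative to the 75th percentile of their array. Probes well above background on all 4 arrays of a group were tested with limma 3.58.1 in R 4.3.3, two-sided, with Benjamini-Hochberg adjustment and a threshold of 0.05. Both fits were run on simulated data with noise independent between arrays and a small part of the probes changed. Such data cannot show the error rate here, where most tested probes were called. The number of arrays, 8, limits the precision. The text names all members, Dnajc2, up to 4 called genes of each related list with the smallest p, and the 3 most similar genes of 2 members. Single genes of the marker lists were named after their values were seen. Listed genes that were not tested are named too, and others are marked. Members and lists were chosen with earlier results of these data known. Exon or UTR annotation of probes was not analysed here.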

Additional observations from a re-analysis of the deposited data

Results flagged for a closer look

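In 20 groups of 4 arrays (9 member probes and Dnajc2, in control and knockdown), 5 held an array far from the other 3 relative to the range of the group. Chance alone flags about 1 in 20 groups. Kdm6a had such an array in both groups: control 3 at 0.01, with the next at 0.81, and knockdown 1 at -0.49, with the next at 0.03. Usp22 was low on knockdown 1 at 0.17, with the next at 0.55. The first Usp16 probe was high on control 3 at 2.52, with the next at 2.33. The second Usp16 probe was low on control 4 at 3.01, with the next at 3.09, a gap of small size.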

How the results depend on the processing

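Of the alternatives, scan date was not run as a block because scan times split the arrays as slides do. Called probes numbered 16591, and without 1 array between 15530 and 16522. Called member probes numbered 4 and between 3 and 5 without 1 array, with 2 without knockdown 3 and 4 as the lowest count and 6 with slide as a block as the highest. Genes with 2 unequal probes numbered 1036 and between 867 and 1011 without 1 array; they were 669 with the knockdown pairs averaged, 659 without knockdown 1 and 2, and 659 without knockdown 3 and 4. Dnajc2 changed by -4.28 to -4.13 without 1 array. Reversals were few: Kdm6b turned to -0.05 with scaling by the median, and the second Usp16 probe to 0.01 with quantile normalization, 0.04 with normexp and 0.04 with the authors' values. Scaling by the median moves all probes of an array by the same amount, which took the small change of Kdm6b below 0. The cause of the reversals of the second Usp16 probe was not tested. Same-numbered arrays of the groups did not deviate together (correlations over probes of 0.11, -0.12, 0.11 and -0.19), so the replicate numbers were not taken as pairs. Control and knockdown arrays on the same slide did deviate together to some degree, with correlations of 0.11 to 0.32. Replicate 3 of both groups is such a pair. The reported fit leaves slide out, and slide as a block was run as an alternative. With the replicate block 15008 probes, 4 of them member probes, and 759 genes with unequal probes were called. Scaling by the median shifted all changes alike, by -0.17, and the directions of Kdm6b and the second Usp16 probe are not settled.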
